A study of Pleurotus ostreatus with 9 samples.

Results

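Agmatinase PLEOSDRAFT_1065795 is 1 gene of the 10682 in the deposited RNA sequencing table of the oyster mushroom Pleurotus ostreatus. It was taken by its identifier, and it was chosen because its level differed between the treatments in this same table. Its own levels and changes are therefore given as a description, without a test. Mycelium of strain GEMB-PO1 was grown in shaken liquid medium of glucose, yeast extract and peptone and harvested on day 3, in 3 groups of 3 biological replicates. The BBP with PB cultures received butyl benzyl phthalate (BBP), a plasticizer, and 1 mM of piperonyl butoxide (PB), a compound that inhibits cytochrome P450 enzymes. The BBP cultures received BBP without PB, and the control cultures received no added chemical. The BBP dose is 50 mg/L in one field of the labels and 200 mg/L in another. No vehicle is named, and no culture with PB but without BBP was analysed here, so an effect of PB itself and an effect of PB on BBP-treated mycelium cannot be told apart. All groups are of 1 strain.

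Agmatinase is a metal-dependent enzyme of the ureohydrolase family. It cleaves agmatine, the decarboxylated form of arginine, into putrescine and urea, and its relative arginase cleaves arginine into ornithine and urea. Putrescine is the precursor of spermidine and spermine. Fungi are known mainly for making putrescine from ornithine through ornithine decarboxylase, and polyamines are broken down by amine oxidases and polyamine oxidases toward 4-aminobutyrate (GABA) and succinate.

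The name agmatinase rests on annotation. The gene's description reads hypothetical protein, as did 10001 of the 10682 descriptions, while its enzyme and KEGG orthology numbers are those of agmatinase. Its ontology terms are the wider class of hydrolases acting on carbon-nitrogen bonds in linear amidines, metal ion binding and endoplasmic reticulum. 2 other genes, PLEOSDRAFT_1035704 and PLEOSDRAFT_1037749, carry the same orthology number and also the narrower term agmatinase activity. No enzyme number in the table was that of arginine decarboxylase, which makes agmatine, or of agmatine deiminase, the other known route from agmatine. The gene lies at positions 431933 to 433703 on the plus strand of a scaffold with 855 listed genes, a span of 1771 bases. Its genome build and exon structure were not stated in the sources used here.

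Libraries held between 38098599 and 49161706 counts. As a check of the tissue label, the vegetative mycelium hydrophobin Vmh2 (PLEOSDRAFT_1091049), a surface protein of hyphae, lay between 0 and 0.767 FPKM (fragment counts scaled by transcript length and library size) in the BBP with PB libraries, between 10.5 and 102 in the BBP libraries and between 570.0 and 843 in the control libraries. This marker therefore moved with the groups, and its part in the results on agmatinase was not tested. In bulk RNA, more cells with the transcript and more transcript per cell cannot be told apart.

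Agmatinase had 189, 202 and 186 FPKM in the BBP with PB libraries, 12.7, 14.9 and 13.1 FPKM in the BBP libraries and 9.49, 11.9 and 9.79 FPKM in the control libraries. All 3 BBP with PB libraries were far above every other library, and the BBP libraries lay just above the control libraries, with no overlap between any groups. The means were 192.7 ± 8.39 FPKM in BBP with PB, 13.58 ± 1.18 in BBP and 10.38 ± 1.288 in control (SD, n = 3 each). The order of the groups was thus BBP with PB, BBP, control, with a wide step between the first pair and a narrow one between the second. The lowest BBP with PB library was 12.5 times the highest BBP library, whereas the lowest BBP library was 1.07 times the highest control library.

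These levels rest on 12208, 11864 and 10707 raw counts in the BBP with PB libraries, 805, 1107 and 861 in the BBP libraries and 683, 751 and 713 in the control libraries. Counting error at these depths was at most 0.966% of the count in BBP with PB, 3.52% in BBP and 3.83% in control. It covers counting only, because PCR copies of a molecule are counted as separate reads. The spread between replicate cultures was wider, with a coefficient of variation of 4.35% in BBP with PB, 8.68% in BBP and 12.4% in control. Genes within 2-fold of its level in the same group had median coefficients of 6.23% in BBP with PB, 12.2% in BBP and 18.4% in control, so agmatinase replicates were closer together than those of the typical gene of its level.

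On CPM (counts scaled to library size) with TMM factors (trimmed mean of M-values, which correct for differences in composition), agmatinase had 311, 328 and 299 in the BBP with PB libraries, 19.0, 22.4 and 20.0 in the BBP libraries and 14.6, 16.0 and 13.1 in the control libraries. The order was the one seen in FPKM, again without overlap, and the lowest BBP library was 1.2 times the highest control library.

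The fitted log2 change of agmatinase was 3.93 ± 0.124 (SE) for BBP with PB against BBP, a 15.3-fold higher level with PB. Against control it was 4.43 ± 0.127 with BBP and PB, which is 21.5-fold, and 0.49 ± 0.112 with BBP, which is 1.41-fold. The deposited FPKM means gave ratios of 14.2 for BBP with PB against BBP, 18.6 for BBP with PB against control and 1.31 for BBP against control. The step between control and BBP was therefore small beside the step between BBP and BBP with PB on either scale. The last comparison and the first share the BBP libraries, and both comparisons against control share the control libraries, so the changes are not independent of each other. Without any one library the fitted change lay between 3.89 and 4.0 for BBP with PB against BBP, between 4.35 and 4.51 for BBP with PB against control and between 0.41 and 0.57 for BBP against control.

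Among the 9399 genes with a mean of at least 1 FPKM, agmatinase had the 4th largest rise in BBP with PB against BBP. Its rise in BBP with PB against control was the 15th largest. In BBP against control it ranked 1319 of 9399. In expression level it stood 700th of 10682 genes by mean FPKM in BBP with PB, above 93.4% of the table, 5681st in BBP and 6478th in control, where it lay above 39.4% of the table. A gene of middling abundance in both other conditions was thus among the more abundant transcripts in BBP with PB. For background, 15.6% of the 9399 genes had all BBP with PB libraries above all BBP libraries in FPKM. All BBP with PB libraries were above all control libraries for 17.1%, and all BBP libraries above all control libraries for 12.3%. In the downward direction, 29.7% had all BBP with PB libraries below all BBP libraries. All BBP with PB libraries were below all control libraries for 40.0%, and all BBP libraries below all control libraries for 22.1%.

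**Figure D1:**
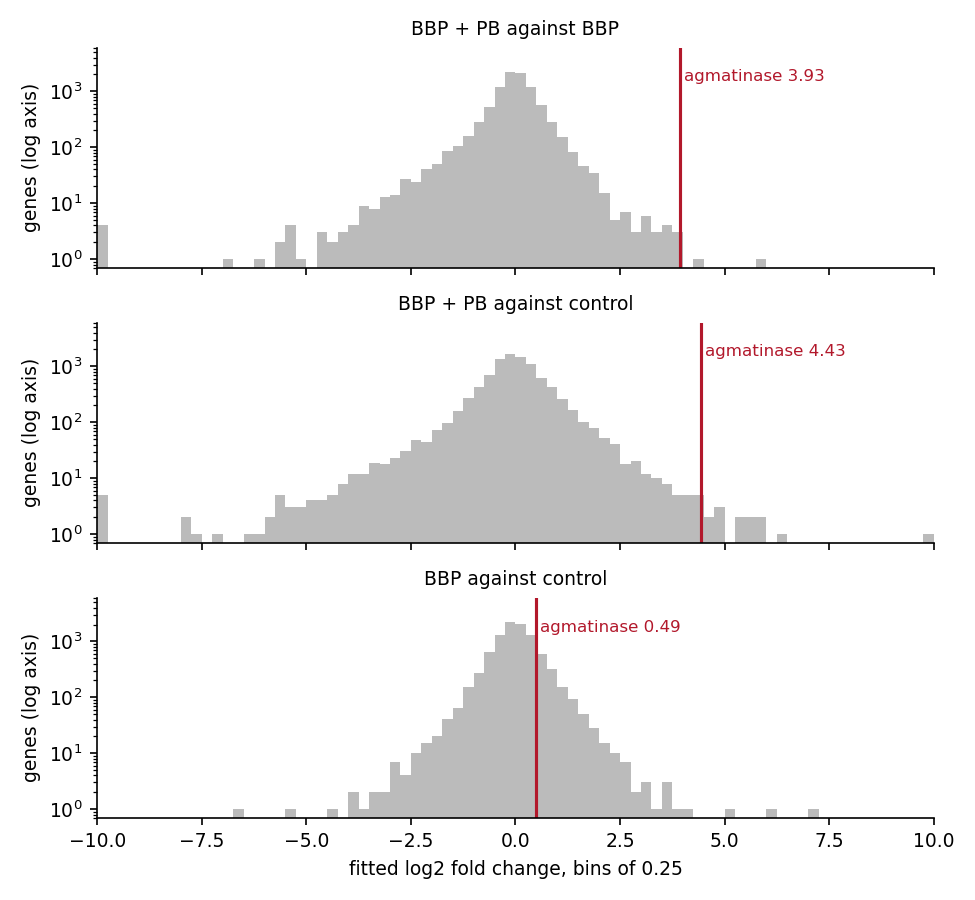
The fitted log2 changes of all 9399 genes are counted in bins of 0.25, on a log axis of gene number, and a line marks agmatinase in each comparison. Agmatinase stands at 3.93 in the far upper tail for BBP with PB against BBP and at 4.43 for BBP with PB against control, but at 0.49 within the body of genes for BBP against control; values beyond ±10 are placed in the outermost bins.

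The other genes annotated as agmatinase did not share this pattern. PLEOSDRAFT_1035704 had 2.26, 4.83 and 3.81 FPKM in the BBP with PB libraries, 4.46, 2.08 and 7.07 in the BBP libraries and 3.76, 5.19 and 4.0 in the control libraries. PLEOSDRAFT_1037749 had 1.3486, 1.1083 and 1.77 FPKM in the BBP with PB libraries, 2.01, 1.44 and 1.43 in the BBP libraries and 1.34, 1.80 and 1.56 in the control libraries. Both genes were low throughout, and their groups overlapped in every comparison. The edgeR quasi-likelihood test, adjusted by Benjamini-Hochberg over 9399 genes, called neither of them in any comparison. For BBP with PB against BBP, the log2 change was -0.22 ± 0.408 for PLEOSDRAFT_1035704 (SE, adjusted p = 0.741) and -0.10 ± 0.257 for PLEOSDRAFT_1037749 (adjusted p = 0.822), which leaves room for modest changes in either direction at these low levels.

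As a consequence of these levels, PLEOSDRAFT_1065795 made up a larger portion of the transcripts annotated as agmatinase when PB was present. Of the summed FPKM of the 3 genes, it held 98.1, 97.1 and 97.1% in the BBP with PB libraries, 66.2, 80.9 and 60.7% in the BBP libraries and 65.0, 62.9 and 63.8% in the control libraries. The BBP with PB libraries all lay above the rest, while BBP and control libraries overlapped. The summed level was 197.7 FPKM in BBP with PB, 19.74 in BBP and 16.26 in control.

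Arginase, the other ureohydrolase in the table, has 2 annotated genes, and they moved in opposite directions in BBP with PB. PLEOSDRAFT_1087775 had 438, 467 and 546 FPKM in the BBP with PB libraries, 136, 261 and 160 in the BBP libraries and 113, 119 and 110 in the control libraries. Its BBP with PB libraries stood above all others, and BBP replicate 2 stood above the other BBP libraries. It rose by a log2 change of 1.49 ± 0.22 in BBP with PB against BBP (SE, edgeR adjusted p = 0.00157) and 2.29 ± 0.225 in BBP with PB against control (edgeR adjusted p = 6.11e-05). In BBP against control it rose by 0.80 ± 0.217 (edgeR adjusted p = 0.0303), but that change was 0.48 without BBP replicate 2 (adjusted p = 0.0486). The BBP call was lost without BBP with PB replicate 2 (edgeR adjusted p = 0.0516), control replicate 2 (0.0817) or control replicate 3 (0.0637).

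The other arginase gene, PLEOSDRAFT_1067181, had 4.73, 5.55 and 3.28 FPKM in the BBP with PB libraries, 17.5, 44.4 and 13.1 in the BBP libraries and 45, 33.9 and 25.8 in the control libraries. The BBP with PB libraries lay below all others, and BBP and control overlapped. Among all genes, 29.7% had all BBP with PB libraries below all BBP libraries, and 40.0% had them below all control libraries. PLEOSDRAFT_1067181 fell by 2.36 ± 0.454 on the log2 scale in BBP with PB against BBP (SE, edgeR adjusted p = 0.00634). In BBP with PB against control its log2 change was -2.755 ± 0.46 (edgeR adjusted p = 0.00127). For BBP against control its log2 change was -0.40 ± 0.424 (edgeR adjusted p = 0.54), and it was -1.10 without BBP replicate 2 (adjusted p = 0.0478). In FPKM, agmatinase reached 0.398 of the level of arginase PLEOSDRAFT_1087775 in BBP with PB, 0.0731 in BBP and 0.0909 in control. Agmatinase had the larger relative rise of this pair in BBP with PB against BBP and against control, and arginase the larger one in BBP against control. Arginase had the higher level in every library.

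**Figure D2:**
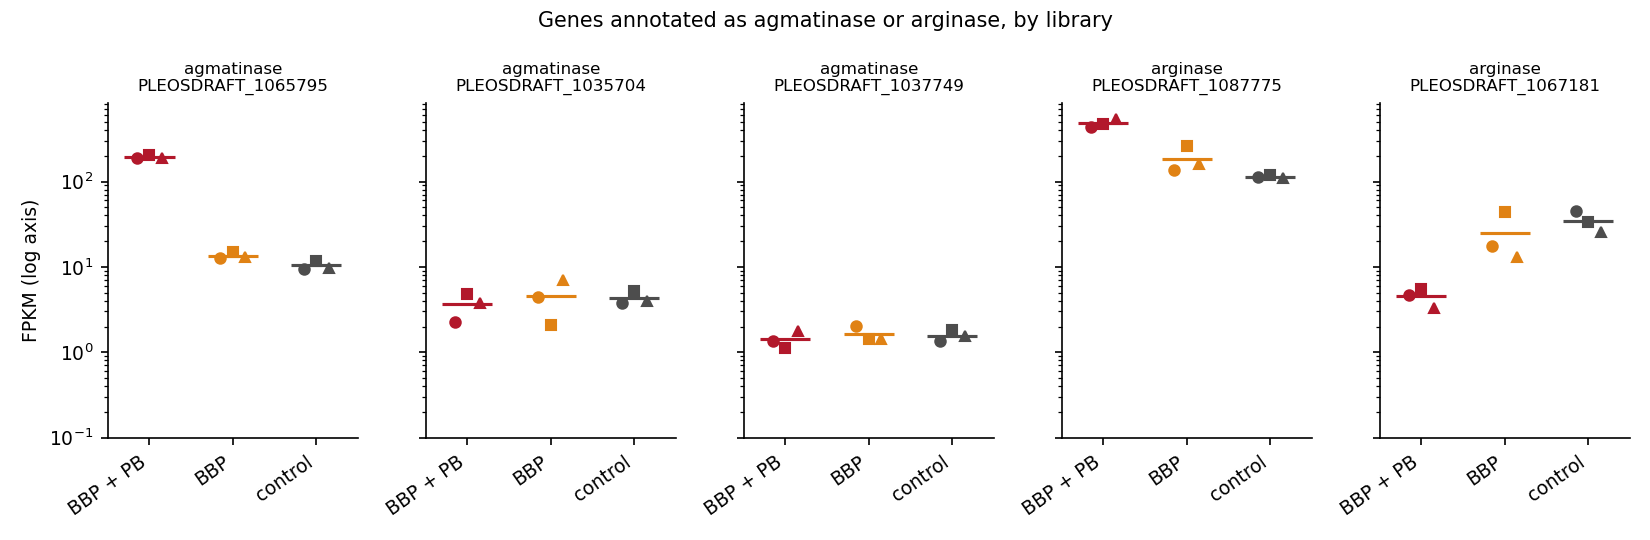
Each point is the FPKM of 1 library on a log axis for the 5 ureohydrolase genes, with circles, squares and triangles for replicates 1, 2 and 3 and a bar for the group mean. Agmatinase PLEOSDRAFT_1065795 averages 192.7 FPKM in BBP with PB, 13.58 in BBP and 10.38 in control, arginase PLEOSDRAFT_1087775 also rises, arginase PLEOSDRAFT_1067181 falls, and both other agmatinase-annotated genes stay below 8 FPKM.

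The genes on either side of the agmatinase reaction were taken by enzyme number or transport term, 47 genes besides agmatinase, of which 45 reached a mean of 1 FPKM and were tested. The remaining 2, a polyamine oxidase (PLEOSDRAFT_1079138) and an ornithine carbamoyltransferase (PLEOSDRAFT_1100658), were too low. In BBP with PB against BBP, edgeR called 11 of the 45 higher (24.4%) and 4 lower (8.89%), while 9.98% of all 9399 genes were called higher and 10.5% lower, 20.4% in either direction. The median log2 change of the 45 was 0.07, and that of all genes was -0.01. Against control, 17 of the 45 were higher in BBP with PB (37.8%) and 8 lower (17.8%), beside 19.9% and 21.2% of all genes and 41.1% in either direction. With BBP against control, 10 were higher (22.2%) and 5 lower (11.1%), beside 10.1% and 8.33% of all genes and 18.4% in either direction. These 3 comparisons share libraries. Leaving out 1 library brought the 11 to 7 (without BBP with PB replicate 2, BBP with PB replicate 3 or BBP replicate 1). It brought the 10 to 4 without control replicate 2 and to 6 without control replicate 1, and the 5 to 2 without BBP replicate 3 and to 3 without BBP replicate 1 or control replicate 2. When libraries were scaled by total counts alone, the split of higher to lower was 8 to 6 for BBP with PB against BBP, 14 to 12 for BBP with PB against control and 6 to 6 for BBP against control.

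In polyamine synthesis and use, 1 of 5 tested genes rose and 1 fell in BBP with PB against BBP. Among all genes, 9.98% were higher and 10.5% lower, and the list is too short to be told from that background. Both called genes have the enzyme number of S-adenosylmethionine synthetase, and the 5 include ornithine decarboxylase, which makes putrescine. The main alternative source of putrescine, ornithine decarboxylase PLEOSDRAFT_1067660, had 80.0, 54.4 and 59.4 FPKM in the BBP with PB libraries, 77.6, 71.2 and 66.8 in the BBP libraries and 156, 166 and 128 in the control libraries. Both BBP-treated groups overlapped each other. They lay below all control libraries, as did BBP with PB for 40.0% of all genes and BBP for 22.1%. Its log2 change was -1.01 ± 0.175 in BBP with PB against control (SE, edgeR adjusted p = 0.00156) and -0.96 ± 0.175 in BBP against control (edgeR adjusted p = 0.00577), against -0.05 ± 0.173 in BBP with PB against BBP (edgeR adjusted p = 0.875). The agmatinase to ornithine decarboxylase ratio of FPKM was 2.37, 3.72 and 3.1 in the BBP with PB libraries, 0.163, 0.209 and 0.197 in the BBP libraries and 0.0608, 0.0716 and 0.0768 in the control libraries. Agmatinase transcript thus exceeded that of ornithine decarboxylase in every BBP with PB library and in no other library.

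S-adenosylmethionine decarboxylase PLEOSDRAFT_1040703, which makes the aminopropyl donor for spermidine, averaged 38.9 FPKM in BBP with PB, 42.0 in BBP and 40.4 in control and was called in no comparison. One S-adenosylmethionine synthetase, PLEOSDRAFT_1052256, averaged 418 ± 46.4 FPKM in BBP with PB and 718 ± 61.1 in BBP (SD, n = 3 each), a log2 change of -0.68 (edgeR adjusted p = 0.00385). It was also lower in BBP than in control (-0.51, edgeR adjusted p = 0.0161), a call lost without BBP replicate 3 (0.0534) or control replicate 2 (0.0574). The other, PLEOSDRAFT_1088122, averaged 96.8 ± 6.85 in BBP with PB and 76.6 ± 11.8 in BBP, a log2 change of 0.44 (edgeR adjusted p = 0.0392) that was not called without any one of the BBP with PB libraries, BBP replicate 1, BBP replicate 3 or control replicate 2 (adjusted p of 0.0517 to 0.123). Methylthioadenosine phosphorylase PLEOSDRAFT_49987, which recycles the by-product of spermidine synthesis, was called in no comparison. The table listed no gene with the enzyme number of spermidine synthase or spermine synthase.

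In polyamine breakdown toward GABA and succinate, 5 of the 16 tested genes rose and 2 fell in BBP with PB against BBP, beside 9.98% higher and 10.5% lower among all genes. The amine oxidase PLEOSDRAFT_1040945, of a family that oxidises primary amines such as putrescine, had 8.07, 5.54 and 9.11 FPKM in the BBP with PB libraries, 1.1925, 1.4614 and 0.66 in the BBP libraries and 1.42, 1.08 and 1.03 in the control libraries. Like agmatinase it was high only in the BBP with PB libraries, though at a far lower level. Its log2 change was 2.88 ± 0.321 in BBP with PB against BBP (SE, edgeR adjusted p = 0.000346). A more abundant amine oxidase, PLEOSDRAFT_38884, averaged 63.4 ± 3.99 FPKM in BBP with PB, 44.0 ± 1.354 in BBP and 31.3 ± 2.19 in control (SD, n = 3 each). It rose by 0.63 ± 0.0915 in BBP with PB against BBP (edgeR adjusted p = 0.00141) and by 0.60 ± 0.0915 in BBP against control (edgeR adjusted p = 0.00262). PLEOSDRAFT_21891 has an amine oxidase enzyme number but transporter ontology terms, and rose by 1.03 ± 0.193 in BBP with PB against BBP (edgeR adjusted p = 0.00548). Of the other amine oxidases, PLEOSDRAFT_1038197 had a log2 change of -0.70 (edgeR adjusted p = 0.0694) and PLEOSDRAFT_1030488 one of -0.03.

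The polyamine oxidase PLEOSDRAFT_162138, which acts on spermidine or spermine, had 4.40, 4.64 and 4.5 FPKM in the BBP with PB libraries, 12.6, 6.45 and 13.3 in the BBP libraries and 8.49, 12.7 and 11.7 in the control libraries. It was lower in every BBP with PB library than elsewhere, opposite to agmatinase, with a log2 change of -1.15 ± 0.248 against BBP (SE, edgeR adjusted p = 0.0106). Among all genes, 29.7% had all BBP with PB libraries below all BBP libraries, and 40.0% had them below all control libraries. Succinate-semialdehyde dehydrogenase, the last step into succinate, has 5 annotated genes. PLEOSDRAFT_52529 rose by 0.53 ± 0.112 in BBP with PB against BBP (edgeR adjusted p = 0.00921). PLEOSDRAFT_162342, at 1.67 FPKM in BBP with PB and 0.931 in BBP, rose by 0.93 (edgeR adjusted p = 0.0366), a call lost without BBP with PB replicate 2 or 3 or BBP replicate 1 or 3 (adjusted p of 0.0734 to 0.135). The most abundant, PLEOSDRAFT_1052335, already averaged 120.6 ± 31.9 FPKM in BBP against 22.6 ± 5.54 in control (SD, n = 3 each), a log2 change of 2.52 ± 0.222 (edgeR adjusted p = 0.000204). In BBP with PB it averaged 165.8 ± 11.8, and its change against BBP was 0.56 (edgeR adjusted p = 0.0869). Its larger step was therefore the one between control and BBP, where that of agmatinase was small.

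Glutamate decarboxylase makes GABA from glutamate. PLEOSDRAFT_1085408 averaged 21.8 ± 3.76 FPKM in BBP with PB, 29.4 ± 20.8 in BBP and 5.54 ± 2.58 in control (SD, n = 3 each), and PLEOSDRAFT_174888 averaged 46.4 ± 0.655 FPKM in BBP with PB, 40.6 ± 10.4 in BBP and 22.6 ± 4.16 in control. Both rose in BBP against control, by 2.52 (edgeR adjusted p = 0.00695) and 0.94 (edgeR adjusted p = 0.013), and neither was called in BBP with PB against BBP. The low PLEOSDRAFT_1041530 fell by 0.65 on the log2 scale in BBP with PB against BBP (edgeR adjusted p = 0.0137), a call lost without BBP with PB replicate 1 or 3 or BBP replicate 1 (adjusted p of 0.0526 to 0.062). GABA transaminase PLEOSDRAFT_1078885 averaged 50.8 FPKM in BBP with PB, 52.0 in BBP and 42.4 in control and was not called between the BBP-treated groups. In BBP with PB against control it rose by 0.48 (edgeR adjusted p = 0.00574), and scaling by total counts alone did not call it (adjusted p = 0.138). Its call in BBP against control (0.41, edgeR adjusted p = 0.0272) was lost without BBP with PB replicate 3, BBP replicate 1 or 3 or control replicate 1 or 2 (adjusted p of 0.0502 to 0.0847). Against control, the succinate-semialdehyde dehydrogenase PLEOSDRAFT_1093086 rose by 0.52 in BBP with PB (edgeR adjusted p = 0.00507; adjusted p = 0.0785 when scaled by total counts alone). PLEOSDRAFT_1103687, which has that enzyme number but actin ontology terms, fell by 0.76 on the log2 scale in BBP with PB against control (edgeR adjusted p = 0.00116). Its fall in BBP against control (-0.47, edgeR adjusted p = 0.0271) was not called without BBP replicate 1 or 3 or control replicate 2 (adjusted p of 0.065 to 0.0978).

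In arginine, ornithine and urea metabolism, 4 of 18 tested genes rose and none fell in BBP with PB against BBP, beside 9.98% higher and 10.5% lower among all genes. In either direction 22.2% of the 18 were called, close to the 20.4% of all genes. This role holds enzymes that make arginine and enzymes that use ornithine or urea. Ornithine transaminase PLEOSDRAFT_1114184, which takes the ornithine made by arginase toward proline and glutamate, had 130, 120 and 134 FPKM in the BBP with PB libraries, 55.5, 91.3 and 63.9 in the BBP libraries and 53.8, 52.5 and 80.8 in the control libraries. The BBP with PB libraries stood above all others, and BBP and control overlapped. It rose by 0.97 ± 0.202 in BBP with PB against BBP (SE, edgeR adjusted p = 0.00889). Urease PLEOSDRAFT_1058849, which degrades the urea that agmatinase and arginase release, averaged 22.4 ± 0.329 FPKM in BBP with PB, 16.8 ± 1.63 in BBP and 17.4 ± 2.4 in control (SD, n = 3 each). It rose by 0.52 ± 0.112 in BBP with PB against BBP (edgeR adjusted p = 0.0108), and limma on log2(FPKM + 1) did not call it (adjusted p = 0.0577).

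The other 2 calls of this role did not hold without single libraries. Argininosuccinate synthase PLEOSDRAFT_1113222, an enzyme of arginine synthesis, averaged 100.3 FPKM in BBP with PB, 67.9 in BBP and 94.5 in control, with a log2 change of 0.67 in BBP with PB against BBP (edgeR adjusted p = 0.0376). It was not called without any one BBP with PB library, BBP replicate 1 or BBP replicate 3 (adjusted p of 0.0769 to 0.121). PLEOSDRAFT_1104746, with the number of carbamoyl-phosphate synthase, rose by 0.47 (edgeR adjusted p = 0.0302) and was not called without any one BBP with PB library, BBP replicate 1 or BBP replicate 2 (adjusted p of 0.0604 to 0.112). Argininosuccinate lyase PLEOSDRAFT_1099171 and ornithine carbamoyltransferase PLEOSDRAFT_49024 were called in no comparison. Acetylglutamate kinase and reductase PLEOSDRAFT_1059326 and acetylornithine transaminase PLEOSDRAFT_1039721, enzymes of ornithine synthesis, were not called either. Neither of the 2 genes with a polyamine transport term was called, and the spermidine transporter PLEOSDRAFT_1010186 averaged 27.6 FPKM in BBP with PB and 36.9 in BBP (edgeR adjusted p = 0.0517).

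Of the 18 tested arginine, ornithine and urea genes, 5 were higher and 3 lower in BBP with PB against control. That is 44.4% called, close to the 41.1% of all genes. In BBP against control 4 were higher and 2 lower, 33.3% called beside 18.4% of all genes. Some genes of this role differed from control in both BBP-treated groups, among them genes with the enzyme number of carbamoyl-phosphate synthase. That enzyme feeds nitrogen into arginine or pyrimidine synthesis. Of those numbered so, PLEOSDRAFT_1104746, PLEOSDRAFT_1104738 and PLEOSDRAFT_37915 have a hydrolase term and no synthase term. PLEOSDRAFT_1104742 has no ontology term, so for these genes the name rests on the number. The carbamoyl-phosphate synthase PLEOSDRAFT_1064990, with a urea cycle term, averaged 28.2 ± 10.2 FPKM in BBP with PB, 29.0 ± 3.19 in BBP and 65.8 ± 9.76 in control (SD, n = 3 each). Its log2 change was -1.003 in BBP with PB against control (edgeR adjusted p = 0.00561), -1.07 in BBP against control (edgeR adjusted p = 0.0105) and 0.07 in BBP with PB against BBP (edgeR adjusted p = 0.854). PLEOSDRAFT_1104746 rose against control by 1.08 in BBP with PB (edgeR adjusted p = 0.000209) and by 0.61 in BBP (edgeR adjusted p = 0.0127, and 0.0538 without control replicate 2). Of the other genes with this enzyme number, PLEOSDRAFT_1104738 rose by 1.292 in BBP with PB against control (edgeR adjusted p = 0.00213) and PLEOSDRAFT_1104742 fell by 0.85 on the log2 scale (edgeR adjusted p = 0.00536).

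Ornithine transaminase PLEOSDRAFT_1114184 rose by 1.26 ± 0.204 in BBP with PB against control (SE, edgeR adjusted p = 0.00108), and urease PLEOSDRAFT_1058849 by 0.57 (edgeR adjusted p = 0.00314; 0.0512 with limma on log2(FPKM + 1)). The calls against control that follow were each lost without some single libraries. In BBP against control PLEOSDRAFT_1104738 rose by 0.88 (edgeR adjusted p = 0.0293), lost without any one control library (adjusted p of 0.0519 to 0.07) and 0.51 without BBP replicate 2 (adjusted p = 0.0367). PLEOSDRAFT_37915, also numbered as carbamoyl-phosphate synthase, rose by 0.56 (edgeR adjusted p = 0.0295), lost without BBP with PB replicate 2, BBP replicate 1 or 3 or control replicate 1 or 2 (adjusted p of 0.0527 to 0.0995). The glutamate acetyltransferase PLEOSDRAFT_1092046 fell by 0.65 on the log2 scale (edgeR adjusted p = 0.0476), lost without any one library other than control replicate 1 or 2, and its change was -0.38 without control replicate 3. Its counterpart PLEOSDRAFT_38643 fell by 0.87 on the log2 scale in BBP with PB against control (edgeR adjusted p = 0.0303), and the change was -1.33 without BBP with PB replicate 1 and not called without BBP with PB replicate 2 (0.0921) or 3 (0.11) or control replicate 2 (0.0981). Urea carboxylase PLEOSDRAFT_1042673, another enzyme that uses urea, was near 2 FPKM. It rose by 0.58 in BBP with PB against control (edgeR adjusted p = 0.0287), lost without BBP with PB replicate 2 or 3 or control replicate 2 or 3 (adjusted p of 0.0686 to 0.114). In BBP against control it rose by 0.63 (edgeR adjusted p = 0.04), lost without any one library other than BBP replicate 2.

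**Figure D3:**
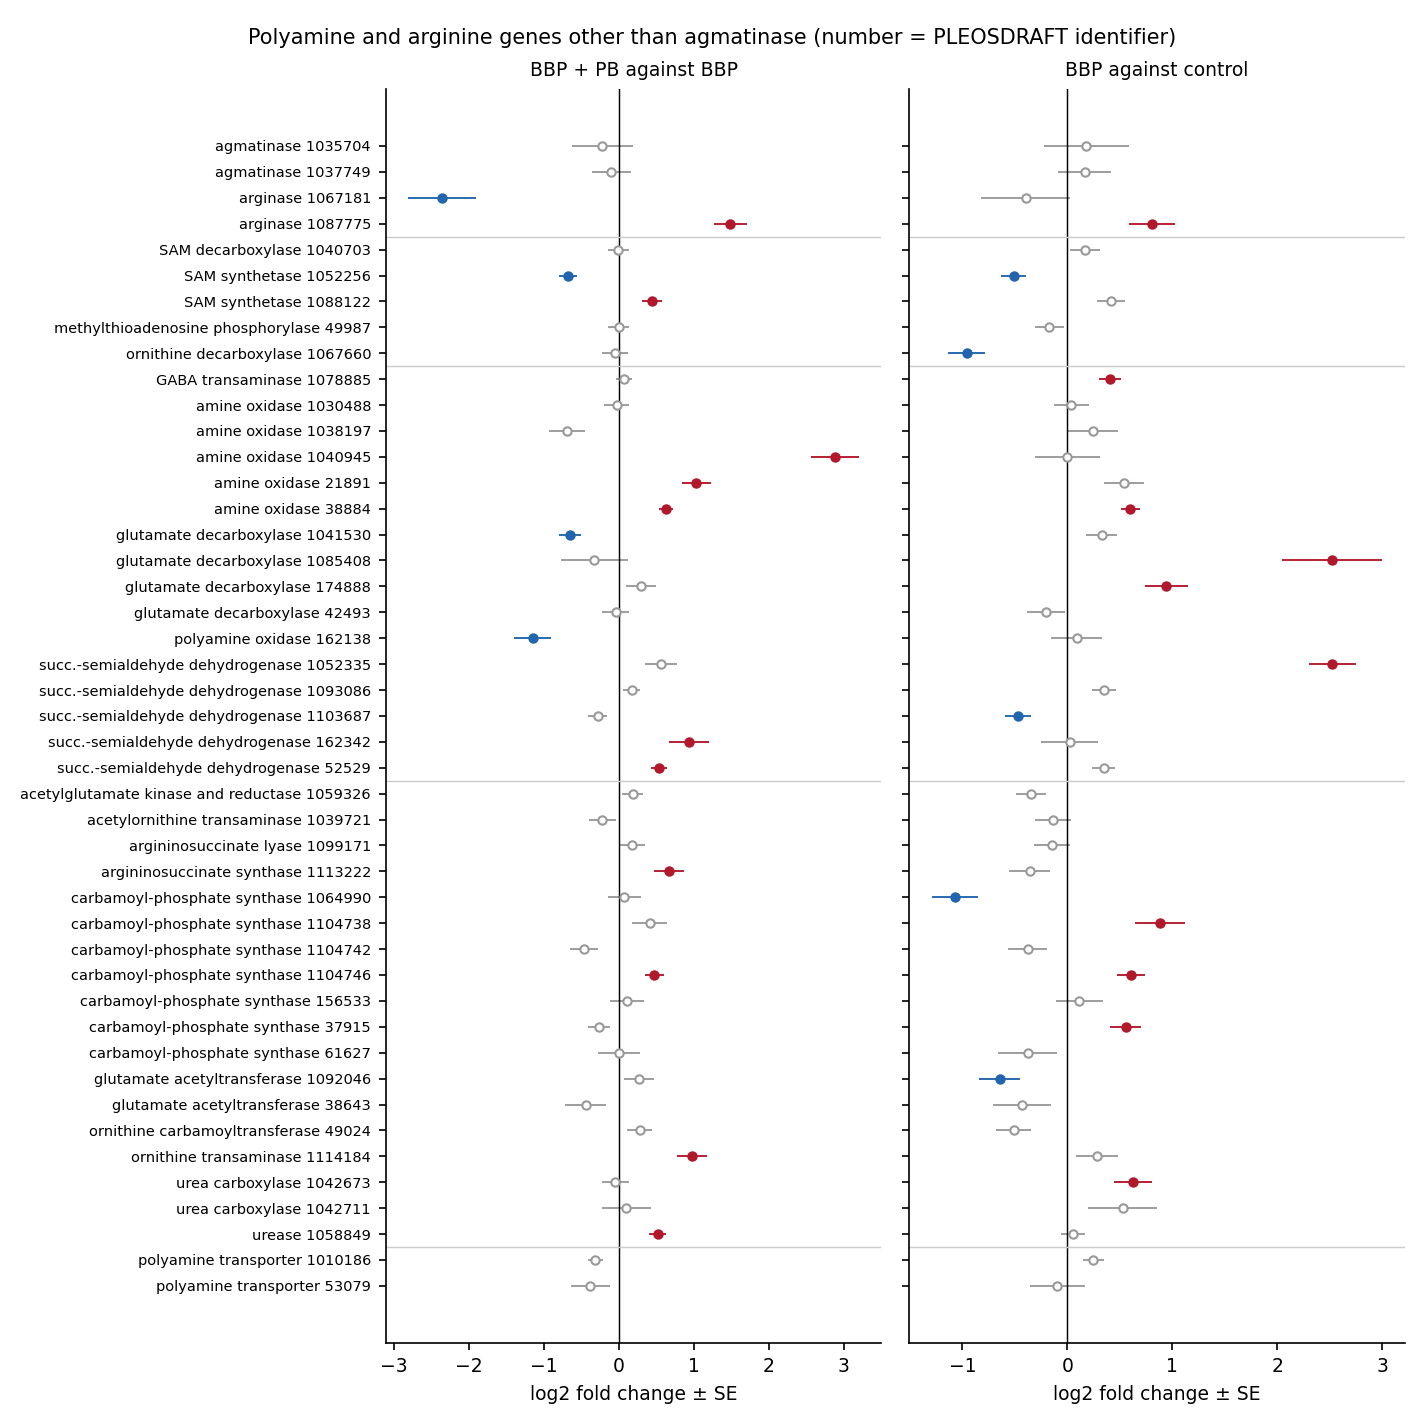
Points are fitted log2 changes with SE of the 45 tested polyamine and arginine genes, grouped by role, for BBP with PB against BBP and for BBP against control; red marks genes called higher, blue genes called lower and open grey genes not called. In BBP with PB against BBP 11 are higher and 4 lower, and the largest rise among them, 2.88 for amine oxidase PLEOSDRAFT_1040945, is smaller than the 3.93 of agmatinase.

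The genes next to agmatinase on its scaffold were compared to see whether the rise extended along the locus. All 3 genes on each side lie on the minus strand, and none overlaps agmatinase. PLEOSDRAFT_1105315, with a drug transport term, lies 488 bases from the start of agmatinase and is read in the opposite direction, away from it. PLEOSDRAFT_1105315 averaged 12.6 ± 0.247 FPKM in BBP with PB, 9.62 ± 0.426 in BBP and 9.92 ± 1.25 in control (SD, n = 3 each). It rose by 0.50 ± 0.113 in BBP with PB against BBP (SE, edgeR adjusted p = 0.0135), a call lost without BBP with PB replicate 2 (adjusted p = 0.0523) and when libraries were scaled by total counts alone (0.0693). On the other side, 316 bases away, PLEOSDRAFT_1044213, with an amino acid antiporter term, averaged 3.88 FPKM in BBP with PB, 7.5 in BBP and 7.41 in control. It fell by 0.85 ± 0.215 on the log2 scale against BBP (edgeR adjusted p = 0.0213), a call lost without BBP with PB replicate 1 or 3 or BBP replicate 3 (0.0708, 0.0801 and 0.0647). The nearest neighbours therefore changed by far less than agmatinase and in opposite directions.

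Further out, PLEOSDRAFT_1105318, with an ester hydrolase term, fell by 1.285 ± 0.336 on the log2 scale in BBP with PB against BBP (SE, edgeR adjusted p = 0.0243). That change was -0.78 without BBP replicate 3 (adjusted p = 0.0616), and the call was also lost without BBP with PB replicate 1 (0.0912) or 3 (0.0789). PLEOSDRAFT_1105313, PLEOSDRAFT_1077381 and PLEOSDRAFT_1105319 were not called, with log2 changes of 0.82 ± 0.417, 0.31 ± 0.138 and -0.05 ± 0.506. PLEOSDRAFT_1077381, a glycosyltransferase of family 66, was called without control replicate 3 (edgeR adjusted p = 0.0428).

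**Figure D4:**
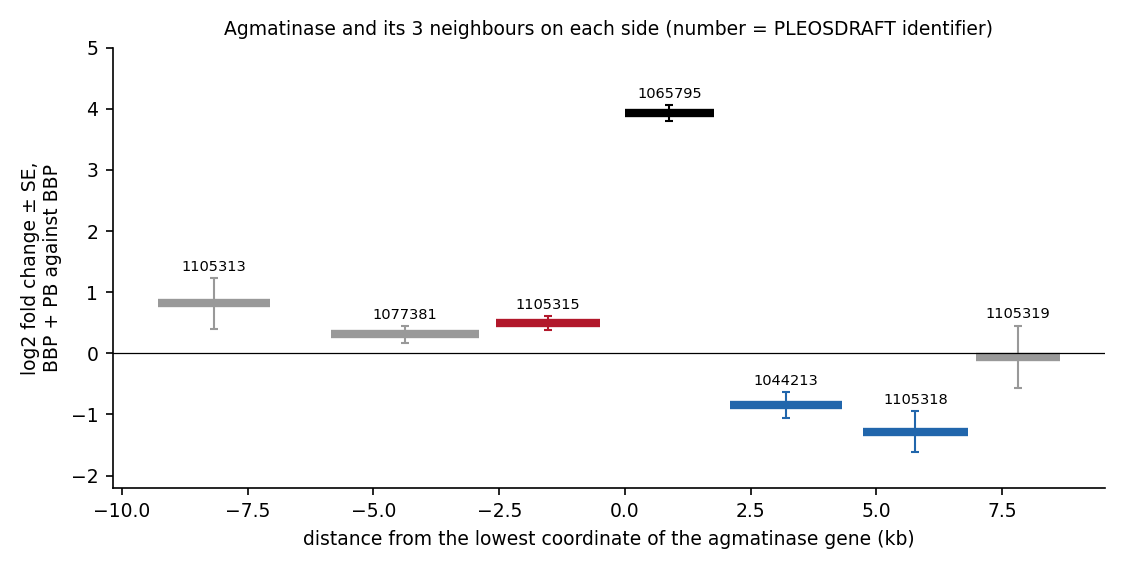
Each horizontal bar spans 1 gene, placed by its distance in kb from the lower end of the agmatinase gene, at its log2 change in BBP with PB against BBP with SE. Agmatinase stands alone at 3.93, and the 6 neighbours lie between -1.285 and 0.82.

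The genes whose pattern was most like that of agmatinase were ranked among 9398 genes by the root mean square difference over the 9 libraries of log2(FPKM + 1), each gene centred on its own mean. They were chosen by their values, so their levels are given without a test. The nearest, PLEOSDRAFT_1111192, differed by 0.231 and has no annotated function beyond an endoplasmic reticulum term. It had 171, 176 and 184 FPKM in the BBP with PB libraries, 16.0, 21.8 and 16.3 in the BBP libraries and 9.32, 11.9 and 12.2 in the control libraries. Those values tracked agmatinase in level as well as in shape. PLEOSDRAFT_1095540, without annotation, differed by 0.345 and averaged 137.7 FPKM in BBP with PB, 17.5 in BBP and 10.5 in control. PLEOSDRAFT_1035372, with an ABC transporter annotation, differed by 0.403 and averaged 896 FPKM in BBP with PB, 81.4 in BBP and 32.8 in control.

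Only these 3 genes were within 0.5 of agmatinase, where the median gene was at 1.95. The rest of the nearest 10 were PLEOSDRAFT_1073980, with an oxidoreductase term, PLEOSDRAFT_50083, annotated as a monooxygenase, and PLEOSDRAFT_156192, PLEOSDRAFT_1072479, PLEOSDRAFT_1077302, PLEOSDRAFT_1089631 and PLEOSDRAFT_1104183, which have no informative annotation, at distances of 0.502 to 0.627. The nearest genes with an enzyme number after PLEOSDRAFT_50083 were phenylalanine ammonia-lyase PLEOSDRAFT_173727 (13th), alcohol dehydrogenase PLEOSDRAFT_1052916 (14th), aldehyde dehydrogenase PLEOSDRAFT_1108860 (20th) and the monooxygenase PLEOSDRAFT_1048809 (21st). PLEOSDRAFT_1108860 also carries a term for aminobutyraldehyde dehydrogenase, the step that follows the oxidation of putrescine. It had 100.7, 115.5 and 120.4 FPKM in the BBP with PB libraries, 17.5, 42.6 and 17.1 in the BBP libraries and 9.59, 8.73 and 11.6 in the control libraries. BBP replicate 2 was the highest BBP library of both genes, and it stood further above the others in PLEOSDRAFT_1108860 than in agmatinase. Arginase PLEOSDRAFT_1087775 was 79th, at 1.05. The make-up of the 10 depended on 1 library: 6 of them were again among the nearest 10 without BBP replicate 2.

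**Figure D5:**
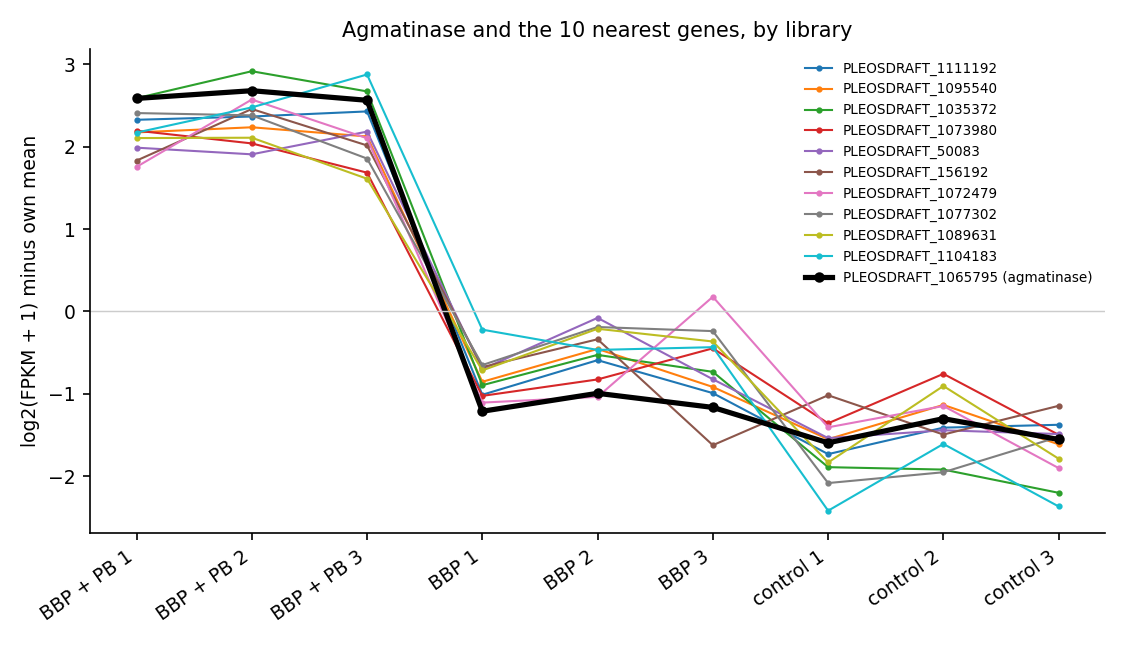
For agmatinase and the genes nearest to it, log2(FPKM + 1) minus the gene's own mean is shown in each of the 9 libraries. Genes of unlike level can therefore lie close together. Lines join the libraries only to guide the eye, since replicates have no order. All of the genes shown are high in the 3 BBP with PB libraries and lower in the BBP and control libraries, and PLEOSDRAFT_1111192, at a distance of 0.231, lies almost on the agmatinase line.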

How the data were processed

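The tools fastp, HISAT2 and StringTie are named in the submitters' processing notes. No source used here gives their versions, the genome build, the annotation or the counting tool. The authors deposited whole-number read counts and FPKM values per gene in 1 table. Libraries were strand-marked poly(A), per the labels' protocols; the strand setting of counting is not given. The 9399 of 10682 genes that averaged 1 FPKM or more were tested on the deposited counts with edgeR 4.0.16 (R 4.3.3, TMM scaling, quasi-likelihood test, 9 libraries in 1 fit, Benjamini-Hochberg over 9399 genes, calls at adjusted p under 0.05). The common biological coefficient of variation was 0.201. Alternatives were scaling by total counts alone, DESeq2 1.42.0, other filters, limma 3.58.1 on log2(FPKM + 1) and log2(FPKM + 0.1), a replicate block and leaving out each library. The test was also run on simulated counts with the same biological coefficient of variation for every gene. That run does not show how the test performs on these data. Counts of same-group libraries differed beyond sampling (chi-square at least 39.96 times its degrees of freedom), so all 9 were kept as separate samples. All carry 1 batch label.

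The gene and the lists were chosen with earlier results of these data known. Named are agmatinase, each called gene of the polyamine and arginine list (by change against BBP, or against control where no other call was made), every ureohydrolase, the most abundant gene of a step with none called, 3 neighbours on each side, the 10 nearest patterns and the 5 nearest with an enzyme number. None of the 11849 reference genes matched an identifier, so no sequence is shown.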

Additional observations from a re-analysis of the deposited data

How the results depend on the processing

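The fitted log2 change of agmatinase kept its direction in all 3 comparisons and under every alternative run. For BBP with PB against BBP it was 3.73 with limma on log2(FPKM + 1) and 3.89 to 4.0 without 1 library. For BBP with PB against control it was 4.21 with library size as the sole scaling, 4.09 with limma on log2(FPKM + 1), 4.21 with limma on log2(FPKM + 0.1) and 4.35 to 4.51 without 1 library, and the log2 ratio of means was 4.43 on TMM-scaled CPM. For BBP against control it was 0.36 with limma on log2(FPKM + 1) and 0.41 to 0.57 without 1 library. Library size as the sole scaling moved the median of all genes to -0.12 for BBP with PB against BBP, -0.26 for BBP with PB against control and -0.11 for BBP against control.

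The 11 list genes higher in BBP with PB against BBP became 7 with either limma fit and 7 to 11 without 1 library. The 10 higher in BBP against control became 6 with library size as the sole scaling, 5 with either limma fit and 4 to 11 without 1 library, and the 5 lower became 2 to 6 without 1 library. Of the nearest 10 patterns, 3 remained when each gene was scaled to unit variance and 6 to 10 without 1 library. Of 64 calls among named genes, 39 held in every alternative. The cause of these shifts was not tested.

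No steady pairing by replicate number was seen: the correlation of deviations between same-numbered libraries lay between -0.158 and 0.216. For BBP with PB against control, it exceeded the highest correlation with another number in replicate 1 (0.191 against 0.156) and replicate 3 (0.216 against -0.135). In the remaining pairs it did not. With the replicate number as a block, the 11 became 7, and agmatinase had 3.93, 4.43 and 0.49.

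Changes of sign were seen only in genes not called. PLEOSDRAFT_1037749 in BBP with PB against control was -0.15 with library size scaling, -0.10 with limma on log2(FPKM + 1), -0.16 with limma on log2(FPKM + 0.1) and -0.12 to 0.20 without 1 library; without 1 library it was -0.28 to 0.08 in BBP with PB against BBP and -0.02 to 0.25 in BBP against control. PLEOSDRAFT_1035704 in BBP against control was -0.04 and -0.08 with the limma fits and -0.30 to 0.53 without 1 library; without 1 library it was -0.57 to 0.26 in BBP with PB against BBP and -0.31 to 0.21 in BBP with PB against control. PLEOSDRAFT_1105319 was -0.45 to 0.28 in BBP with PB against BBP. The cause of these changes of sign was not tested.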

Other observations

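Urea is the second product of agmatinase, and the genes with a urea term were looked up after their values were seen. Their adjusted p values are therefore given only as a description, and a link to agmatinase was not tested. A channel gene with urea, water and glycerol transport terms, PLEOSDRAFT_1073531, had 386, 407 and 367 FPKM in the BBP with PB libraries, 87.5, 116 and 88.4 in the BBP libraries and 33.1, 23.3 and 25.8 in the control libraries. The 3 groups did not overlap. It rose by a log2 change of 2.09 ± 0.194 in BBP with PB against BBP (SE, edgeR adjusted p = 0.000144), 4.01 ± 0.21 in BBP with PB against control (edgeR adjusted p = 1.5e-06) and 1.92 ± 0.193 in BBP against control (edgeR adjusted p = 0.000417). Unlike agmatinase, it also had a large step between control and BBP. The other gene with these channel terms, PLEOSDRAFT_1058778, was called in no comparison, with 27.2, 35.2 and 25.7 FPKM in the BBP with PB libraries, 18.1, 9.36 and 24.6 in the BBP libraries and 66.0, 18.3 and 21.5 in the control libraries.

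Genes with terms for urea metabolism and nickel binding, as carried by proteins that supply urease with its metal, differed among themselves. PLEOSDRAFT_1057631 averaged 83.8 ± 10.3 FPKM in BBP with PB, 45.1 ± 19.1 in BBP and 36.5 ± 2.83 in control (SD, n = 3 each). It rose by 1.00 ± 0.243 in BBP with PB against BBP (SE, edgeR adjusted p = 0.018), a call lost without BBP with PB replicate 3 (adjusted p = 0.0688), BBP replicate 1 (0.0656) or BBP replicate 3 (0.0586). PLEOSDRAFT_1075149 averaged 9.64 FPKM in BBP with PB, 12.9 in BBP and 16.4 in control and fell by 0.56 on the log2 scale in BBP with PB against control (edgeR adjusted p = 0.0109). PLEOSDRAFT_1076260 was called in no comparison.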
